A study of Mus musculus with 10 samples.

Results

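The genes described here form the core of insulin receptor signalling: the ligand gene Igf1, the receptor Insr, its docking proteins Irs1 and Irs2, the phosphoinositide kinase subunits Pik3r1 and Pik3ca, the kinases Akt1 and Akt2, and the Akt substrates Foxo1 and Tbc1d4. They were chosen by name for their place in the pathway, with earlier results of these data known, and all 10 were found among the 15075 genes of the table. Polyadenylated RNA was sequenced from the interscapular brown fat (iBAT) of C57BL/6 mice at 20 weeks of age, kept at room temperature, with 5 different mice per group. In AdCKO mice exon 4 of Crls1 was floxed (placed between loxP sites), and the adiponectin promoter drove a Cre recombinase that removes it. This promoter is active in adipocytes of every fat depot, so the deletion was not limited to brown fat. Control mice are wild-type in the sample labels, and by the study's methods they were homozygous for the floxed allele and lacked Cre. Crls1 encodes the synthase of cardiolipin, the signature phospholipid of mitochondria, and the comparison asked how transcripts in brown fat differ once adipocytes lose it.

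Insulin binds a receptor tyrosine kinase at the cell surface, which phosphorylates the docking proteins IRS1 and IRS2. These recruit phosphoinositide 3-kinase, a dimer of a regulatory and a catalytic subunit, whose lipid product brings Akt to the membrane. Active Akt keeps the transcription factor FOXO1 out of the nucleus and switches off TBC1D4, a brake on the movement of the glucose transporter GLUT4 to the surface. IGF1 is a related hormone that acts mainly through its own receptor, IGF1R, and feeds into the same chain. In brown fat this chain drives glucose uptake and lipid synthesis.

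Levels are given per kb of exon as normalized reads, so they can be compared between genes. Crls1 itself (chr2:132672402-132692504, mm9, plus strand) lay between 813 and 1291 in the Control libraries and between 193 and 249 in the AdCKO libraries, whose mean was 20.5% of the Control mean. Of 8 adipocyte markers 7 were lower in AdCKO, with sums of 220546 to 249658 in Control and 137429 to 160980 in AdCKO, and none was at 0. Most of each sum was Fabp4, the marker that was not called (limma adjusted p = 0.0205), at 73.5% of its Control mean. Of the other 7, Cidea was at 34.2%, Ucp1 at 38.1% and Lipe at 43.8%, and the rest were at 65.3% to 72.7%. All 8 macrophage markers were higher (sums of 443 to 1225 in Control and 5759 to 7848 in AdCKO), as were 6 of 7 fibroblast and preadipocyte markers (1026 to 1348 and 3549 to 5102). For endothelial markers 2 of 6 were higher (1328 to 1660 and 1404 to 1891), and the summed lymphoid markers were 31.2 to 40.2 and 29.6 to 179. The lymphoid sum of 179 was that of AdCKO replicate 1 alone, and the next AdCKO library, replicate 4, was at 45.9. AdCKO libraries 1, 2 and 4 held skeletal muscle transcripts, with summed markers of 6264, 24603 and 9508, against 153 and 140 in AdCKO libraries 3 and 5 and 108 to 137 in Control. Where a call or a direction changed without these 3 libraries, or a difference moved by over 1.5 times, the value without them is given. In bulk tissue, fewer cells of a type and less RNA per cell cannot be told apart.

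Of the 10 members 2 were higher in AdCKO, Igf1 and Irs2, and 4 were lower, Akt2, Foxo1, Tbc1d4 and Irs1. The other 4, Insr, Pik3r1, Pik3ca and Akt1, did not pass the test. Calls were made where the limma adjusted p was under 0.01 in a fit over 11244 genes, of which 53.6% were called, 25.6% higher and 28% lower. For 5 members the groups did not overlap, against 50.9% of all tested genes. The share of members called, 60.0%, was near that of all genes, and their median log2 fold change was -0.39 against -0.01 for all tested genes. Differences are AdCKO minus Control of log2(value + 1), with the standard error (SE), and the added 1 makes changes of low genes look smaller than they are.

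**Figure D1:**
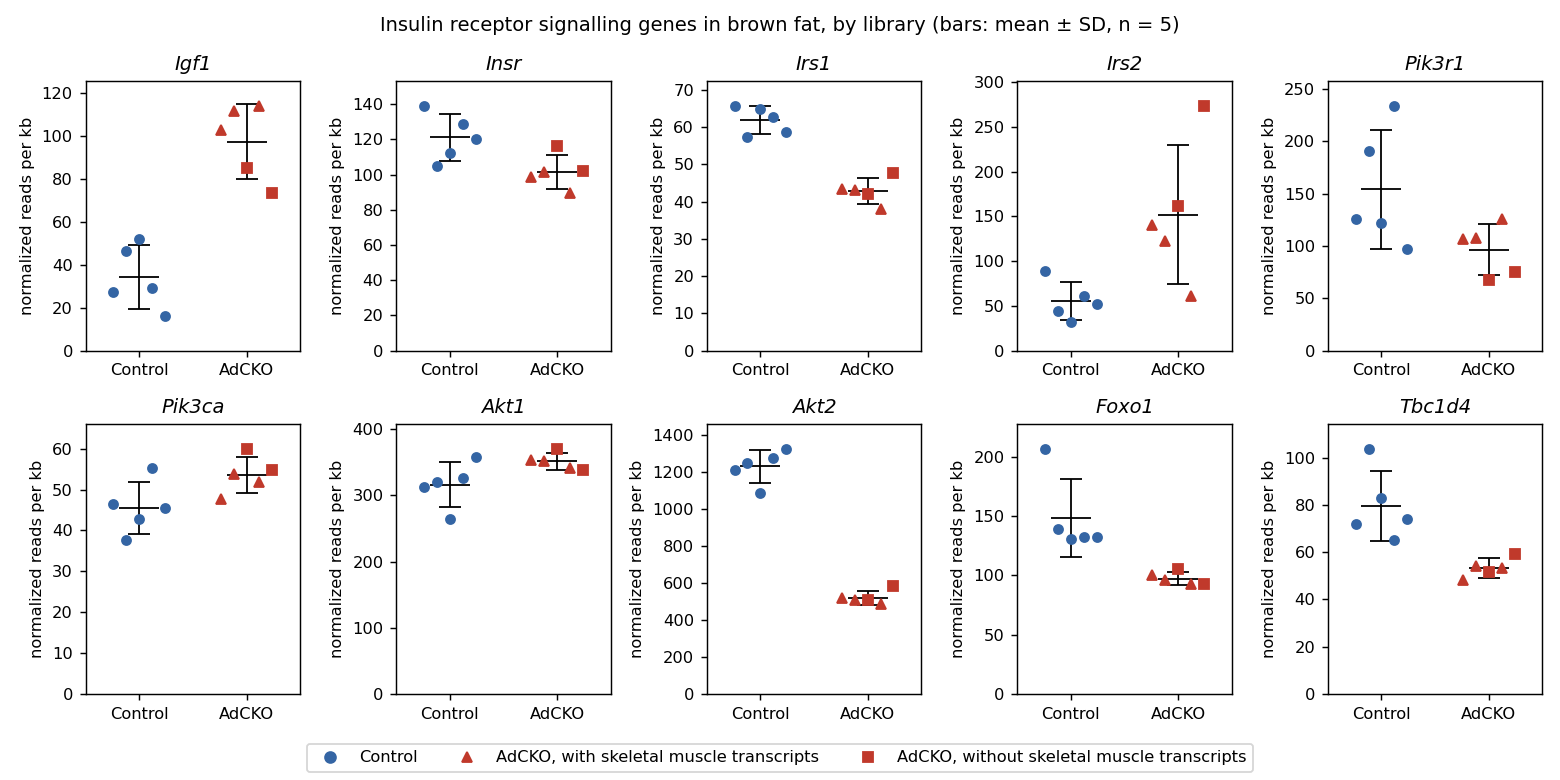
Level of each of the 10 genes in every library, in normalized reads per kb from 0, for Control (circles) and AdCKO, with triangles for the 3 AdCKO libraries that held skeletal muscle transcripts and squares for the other 2; bars are mean ± SD (n = 5 per group). The groups are apart for Igf1, Irs1, Akt2, Foxo1 and Tbc1d4, and overlap for the other 5 genes.

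Igf1 (NM_010512, chr10:87321801-87399792, mm9, plus strand) rose. This hormone is made by the liver for the circulation and by many tissues, macrophages and mesenchymal cells among them, for local use. Its level was 27.2, 46.5, 52.0, 29.1 and 16.2 in Control libraries 1 to 5 and 103, 111, 84.97, 114 and 73.2 in AdCKO libraries 1 to 5. The lowest AdCKO library lay above the highest Control library. The mean went from 34.2 ± 14.7 to 97.2 ± 17.6 (SD, n = 5 each), 2.84 times the Control mean, with a difference of 1.57 in log2 (SE 0.26, limma adjusted p = 0.000206). The 3 AdCKO libraries with muscle transcripts were the highest, at 103 to 114 against 73.2 and 84.97 in the other 2, and with those 2 as the only AdCKO libraries the difference was 1.29 (limma adjusted p = 0.00982).

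Igf1 also moved with the macrophage markers and with the fibroblast and preadipocyte markers. Within Control, replicates 2 and 3 had the highest macrophage sums, 767 and 1225, and the highest Igf1, 46.5 and 52.0. The other 3 had macrophage sums of 443 to 506 and Igf1 of 16.2 to 29.1. Within AdCKO, replicates 2 and 4 had the highest macrophage sums, 7848 and 7771, and the highest Igf1, 111 and 114. AdCKO replicate 1 had the lowest sum, 5759, yet its Igf1 of 103 was above that of replicate 3 (sum 6066, Igf1 84.97) and of replicate 5 (sum 5861, Igf1 73.2). Most of each sum was the single marker Lyz2, at 4331, 6254, 4714, 5950 and 4730 in AdCKO replicates 1 to 5. Cd68, the next most abundant, stood at 926, 1095, 871, 1250 and 741, the same order as Igf1. The less abundant markers did not all have this order. Summed fibroblast and preadipocyte markers in Control replicates 1 to 5 were 1050, 1097, 1348, 1046 and 1026. Replicates 2 and 3 were thus the highest here too, and replicate 5, with the lowest Igf1, was the lowest. These markers were higher in every AdCKO library, with sums of 5102, 5050 and 5093 in replicates 1, 2 and 4, 4653 in replicate 3 and 3549 in replicate 5. The part of these cell types in the rise of Igf1 was not tested.

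**Figure D2:**
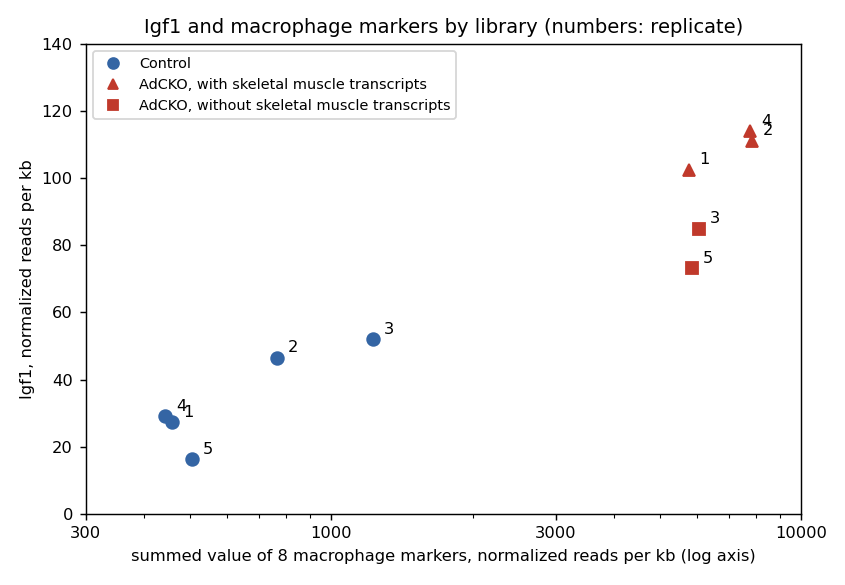
Igf1 level (vertical axis, normalized reads per kb) against the summed level of 8 macrophage markers (horizontal log axis, same unit) in each library, with replicate numbers beside the points. The 5 Control libraries sit at sums of 443 to 1225 and the 5 AdCKO libraries at 5759 to 7848, and in each group the libraries with the 2 highest sums have the 2 highest Igf1 levels. Most of each sum is the single marker Lyz2. Summed fibroblast and preadipocyte markers, not drawn, were also highest in Control replicates 2 and 3.

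Insr (NM_010568, chr8:3150922-3279617, mm9, minus strand) encodes the insulin receptor. Its level was 139, 105, 112, 129 and 120 in Control and 98.3, 101, 116, 89.3 and 102 in AdCKO. AdCKO replicate 3 lay inside the Control range and the other 4 below it. The means were 121 ± 13.4 and 102 ± 9.78, and the difference of -0.25 (SE 0.09) did not pass the threshold (limma adjusted p = 0.0279). With only the 2 AdCKO libraries that lacked muscle transcripts it was -0.14 (limma adjusted p = 0.354), and with the mean log2 level of the muscle markers as a covariate -0.16 (limma adjusted p = 0.273). The 3 AdCKO libraries with muscle transcripts stood at 89.3 to 101, and the other 2 at 102 and 116. A link of Insr to muscle was not tested. At the threshold of 0.01, only array quality weights, which give less weight to libraries of larger residual spread, brought Insr past it (-0.28, limma adjusted p = 0.00883). The adjusted p of the main fit was under the alternative threshold of 0.05.

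Igf1r, the receptor for IGF1 and a close relative of Insr, was low in both groups, at 12.3 ± 1.49 in Control and 15.7 ± 2.08 in AdCKO (0.33, SE 0.11, limma adjusted p = 0.0221), and was not called. Both receptors were then set against each other within each library. A factor that scales a whole library leaves such a ratio nearly the same. With 1 added to each value, Insr over Igf1r was 8.98, 9.16, 9.06, 9.80 and 9.07 in Control and 7.05, 5.77, 7.49, 5.46 and 5.26 in AdCKO. The groups did not overlap, and the geometric mean went from 9.21 to 6.14, a log2 difference of -0.58 (two-sided exact permutation p = 0.0079, the smallest 5 against 5 can give, adjusted over the 4 ratios tested p = 0.0106). Under quantile normalization, which gives all libraries the same distribution of values and so is no single factor, the difference was -0.19 and did not pass (exact permutation p = 0.151, adjusted p = 0.151). Insr transcripts were more abundant than those of Igf1r in every library.

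The docking proteins moved in opposite directions. Irs1 (NM_010570, chr1:82229680-82288014, mm9, minus strand) and Irs2 (NM_001081212, chr8:10986964-11008430, mm9, minus strand) both link the receptor to phosphoinositide 3-kinase, and transcription of Irs2 is known to be held down by insulin. Their promoters are shown because both hold the E-box letters CACGTG (a palindrome, so the same on either strand), printed in capitals. The sequences are the 250 bases before each start, 5′ to 3′ on the gene's strand, from RefSeq on GRCm38.p6.
Irs1, chr1:82291440-82291689, minus strand: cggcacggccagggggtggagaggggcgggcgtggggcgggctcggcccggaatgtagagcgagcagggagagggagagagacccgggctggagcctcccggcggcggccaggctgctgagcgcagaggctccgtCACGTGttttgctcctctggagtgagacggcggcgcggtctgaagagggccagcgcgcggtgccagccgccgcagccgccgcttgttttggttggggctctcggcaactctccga
Irs2, chr8:11008930-11009179, minus strand: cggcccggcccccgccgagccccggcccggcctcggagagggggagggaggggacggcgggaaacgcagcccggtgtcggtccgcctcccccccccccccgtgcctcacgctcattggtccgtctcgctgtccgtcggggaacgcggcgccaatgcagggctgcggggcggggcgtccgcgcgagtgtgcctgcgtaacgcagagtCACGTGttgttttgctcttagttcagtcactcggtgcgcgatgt
The match lies 115 bases before the start of Irs1 and 44 bases before that of Irs2. Promoters were given for 9 of the 10 members, 14 in all. This motif, chosen after the sequences were seen, was in 2 of the 14 and in 7.15% of all 32851 promoters of 300 bases. A match of letters is a description and not a site.

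Irs1 fell from a narrow Control range to a narrow AdCKO range. It stood at 65.7, 57.3, 64.8, 62.8 and 58.6 in Control and at 43.3, 43.0, 42.0, 37.9 and 47.7 in AdCKO. The groups did not overlap, and the mean went from 61.8 ± 3.75 to 42.8 ± 3.49, a difference of -0.52 in log2 (SE 0.07, limma adjusted p = 6.04e-05). With only the 2 AdCKO libraries that lacked muscle transcripts it was -0.46 (limma adjusted p = 0.00512).

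Irs2 was more variable. It stood at 88.6, 44.3, 31.7, 61.6 and 52.5 in Control and at 141, 122, 161, 61.5 and 274 in AdCKO. AdCKO replicate 4 lay within the Control range, while the other 4 lay above the highest Control library. The mean went from 55.8 ± 21.4 to 152 ± 77.7, a difference of 1.35 in log2 (SE 0.35, limma adjusted p = 0.00439). The call was lost without Control replicate 2, 3 or 5 or AdCKO replicate 3 (limma adjusted p of 0.0126, 0.0115, 0.0104 and 0.0116), with the log2 fold change still between 1.103 and 1.64 over all 10 omissions. Against the 2 AdCKO libraries without muscle transcripts alone it was 1.98 (limma adjusted p = 0.000474).

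Within each library, Irs1 over Irs2 was 0.744, 1.29, 2.01, 1.02 and 1.11 in Control and 0.313, 0.358, 0.265, 0.623 and 0.177 in AdCKO. In Control Irs1 was level with or above Irs2 in all libraries but replicate 1, and in AdCKO Irs2 was above Irs1 in all 5. The geometric mean of the ratio went from 1.17 to 0.318, a log2 difference of -1.88 with no overlap (exact permutation p = 0.0079, adjusted p = 0.0106). Annotated exons on the other strand overlap both genes (Gm9747 at Irs1 and 9530052E02Rik at Irs2), and since the strand setting of the counting is not given in the sources used here, their reads cannot be told apart.

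The 2 subunits of phosphoinositide 3-kinase did not pass the test. Pik3r1 (NM_001077495, chr13:102450716-102538172, mm9, minus strand) encodes the main regulatory subunits, which bind IRS proteins. It stood at 126, 191, 122, 234 and 96.9 in Control and at 107, 107, 67.1, 125 and 74.8 in AdCKO. The groups overlapped, with Control replicates 2 and 4 far above the other libraries. The means were 154 ± 56.6 and 96.3 ± 24.4 (-0.64 in log2, SE 0.24, limma adjusted p = 0.0327).

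Inside AdCKO, the 3 libraries that held muscle transcripts had Pik3r1 at 107 to 125, and the other 2 had it at 67.1 and 74.8. With only those 2 the difference was -1.03 (limma adjusted p = 0.00970), and with the muscle markers as a covariate it was -1.001 (limma adjusted p = 0.00686), so that in either fit Pik3r1 would be called lower. A link of Pik3r1 to muscle was not tested. Exons of Gm11016 overlap this gene on the other strand.

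Pik3ca (NM_008839, chr3:32335073-32367408, mm9, plus strand) encodes a catalytic subunit. It stood at 46.4, 37.7, 42.8, 55.2 and 45.5 in Control and at 47.7, 53.7, 60.0, 51.8 and 54.7 in AdCKO. Control replicate 4 lay within the AdCKO range, and the other Control libraries lay below every AdCKO library. The means were 45.5 ± 6.36 and 53.6 ± 4.48 (0.24 in log2, SE 0.10, limma adjusted p = 0.0513). Pik3r1 over Pik3ca went from a geometric mean of 3.19 (2.11 to 4.95) to 1.74 (1.12 to 2.39), a log2 difference of -0.87 with overlapping groups (exact permutation p = 0.0238, adjusted p = 0.0238). Under quantile normalization it was -0.71 and did not pass (exact permutation p = 0.0635, adjusted p = 0.0847), and with only the 2 AdCKO libraries without muscle transcripts it was -1.37.

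Akt2 showed the strongest fall of the 10. This kinase is the main Akt of insulin-stimulated glucose uptake in fat and muscle, while Akt1 is known more for growth. Akt2 (NM_001110208, chr7:28376579-28424472, mm9, plus strand) stood at 1213, 1253, 1087, 1279 and 1327 in Control and at 519, 509, 506, 486 and 584 in AdCKO. Every AdCKO library was below every Control library, and the AdCKO mean of 521 ± 37.2 was 42.3% of the Control mean of 1232 ± 90.8. The difference in log2 came to -1.24 (SE 0.07, limma adjusted p = 6.08e-08), and -1.18 with only the 2 AdCKO libraries without muscle transcripts (limma adjusted p = 1.33e-05). The summed adipocyte markers were lower in every AdCKO library too, and their part in this fall was not tested.

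Akt1 (NM_009652, chr12:113892032-113912487, mm9, minus strand) stood at 313, 320, 264, 327 and 358 in Control and at 353, 353, 371, 342 and 339 in AdCKO. The highest Control library lay among the AdCKO libraries. The means were 316 ± 34.1 and 351 ± 12.5, and the difference of 0.16 (SE 0.08, limma adjusted p = 0.0944) did not pass the test. Under quantile normalization it was 0.32 (limma adjusted p = 0.00213).

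Akt1 over Akt2 within a library was 0.259, 0.256, 0.243, 0.256 and 0.270 in Control and 0.681, 0.694, 0.733, 0.704 and 0.582 in AdCKO. The geometric mean went from 0.257 to 0.676, a log2 difference of 1.40 with no overlap (exact permutation p = 0.0079, adjusted p = 0.0106). Akt2 thus went from 3.90 times to 1.48 times the level of Akt1, and stayed the more abundant of the pair in all 10 libraries. Of the member promoters, only 1 of 2 given for Akt1 held the FOXO core TGTTTAC on either strand, which is printed in capitals here, on the gene's strand, 161 bases before the start (RefSeq, GRCm38.p6).
Akt1, chr12:112674885-112675134, minus strand: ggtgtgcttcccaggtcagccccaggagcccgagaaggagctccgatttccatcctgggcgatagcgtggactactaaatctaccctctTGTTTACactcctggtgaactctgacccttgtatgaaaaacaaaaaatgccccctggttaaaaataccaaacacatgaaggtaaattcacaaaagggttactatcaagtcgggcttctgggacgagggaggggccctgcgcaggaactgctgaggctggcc
The FOXO core was in 3.65% of all promoters, and TGATGCAA, a composite C/EBP-ATF element bound by stress factors, in 0.895% of all and 0 of the 14 member promoters. That says only that these letters are not in these windows.

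**Figure D3:**
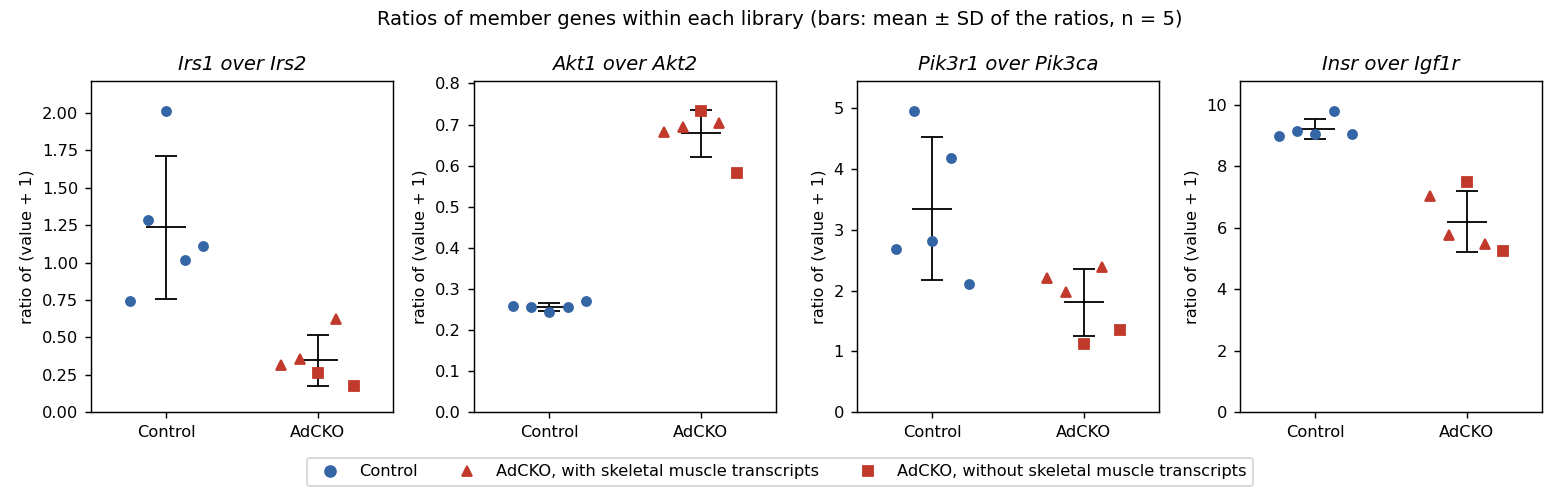
Ratio of 2 genes within each library, with 1 added to each value, on linear axes from 0, for Control (circles) and AdCKO (triangles with and squares without skeletal muscle transcripts); bars are mean ± SD of the ratios (n = 5). Irs1 over Irs2 and Insr over Igf1r are lower and Akt1 over Akt2 higher in every AdCKO library than in any Control library, and Pik3r1 over Pik3ca overlaps.

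Both Akt substrates fell. Foxo1 (NM_019739, chr3:52072259-52154031, mm9, plus strand), a transcription factor that turns on genes of fasting and is itself a brake on adipocyte differentiation, stood at 207, 139, 131, 132 and 132 in Control and at 100.2, 95.9, 105, 92.7 and 92.3 in AdCKO. Control replicate 1 stood far above the other 4 Control libraries, all of which were still above every AdCKO library. The mean went from 148 ± 32.9 to 97.2 ± 5.34 (-0.58 in log2, SE 0.12, limma adjusted p = 0.000906). Without Control replicate 1 the difference was -0.45 (limma adjusted p = 8.43e-05). Exons of RP24-337A16.1 overlap Foxo1 on the other strand.

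Tbc1d4 (NM_001081278, chr14:101841577-102008408, mm9, minus strand) stood at 72.1, 104, 83.0, 65.3 and 74.1 in Control and at 48.3, 54.1, 51.6, 53.2 and 59.4 in AdCKO. The groups did not overlap, and the AdCKO libraries were the closer together. The mean went from 79.7 ± 14.9 to 53.3 ± 4.05 (-0.56 in log2, SE 0.11, limma adjusted p = 0.000904). With only the 2 AdCKO libraries without muscle transcripts, neither substrate was called, at -0.56 for Foxo1 (limma adjusted p = 0.0184) and -0.50 for Tbc1d4 (limma adjusted p = 0.0245). With the muscle covariate Tbc1d4 was at -0.51 (limma adjusted p = 0.0119).

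In order of level, Akt2 and Akt1 stood first and second in both groups. In Control Pik3r1, Foxo1, Insr, Tbc1d4, Irs1, Irs2, Pik3ca and Igf1 followed, and in AdCKO Irs2, Insr, Foxo1, Igf1, Pik3r1, Pik3ca, Tbc1d4 and Irs1. Igf1 moved from rank 10 to rank 6, and Irs1 from rank 7 to rank 10. Several neighbours did not differ beyond their spread: Pik3r1 and Foxo1 in Control (154 ± 56.6 and 148 ± 32.9), Irs1 and Irs2 in Control (61.8 ± 3.75 and 55.8 ± 21.4), and Insr, Foxo1, Igf1 and Pik3r1 in AdCKO (means of 96.3 to 102). The place of Irs2 in AdCKO, at 152 ± 77.7, was not apart from these 4 either, and in AdCKO replicate 4 it lay below all of them.

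Calls of the smaller differences, and the sign of Insr, rested on the scaling. The deposited values times counted length in kb summed, over all genes, to 7615403 to 8171138 in Control and to 5419800 to 5843024 in AdCKO. Scaling every library to the same total of value times counted length shifted the median over all tested genes by 0.47 on the log2 scale, from -0.01 to 0.46, and the share of calls that were higher from 47.7% to 86.1%. Akt2 stayed lower (-0.76, limma adjusted p = 8.22e-07) and Igf1 and Irs2 stayed higher (2.04 and 1.83, limma adjusted p of 1.77e-05 and 0.000372). Irs1, Foxo1 and Tbc1d4 were then at -0.05, -0.10 and -0.08 and were not called (limma adjusted p of 0.571, 0.455 and 0.478), Insr turned to 0.23 (limma adjusted p = 0.0544), and Pik3ca and Akt1 were called higher at 0.71 and 0.64 (limma adjusted p of 6.55e-05 and 1.16e-05). Relative to the median of all genes under that scaling, Irs1 was at -0.51, Foxo1 at -0.56, Tbc1d4 at -0.54 and Akt2 at -1.22. Under quantile normalization Igf1, Irs2 and Akt1 were called higher and Akt2, Irs1, Tbc1d4 and Foxo1 lower.

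**Figure D4:**
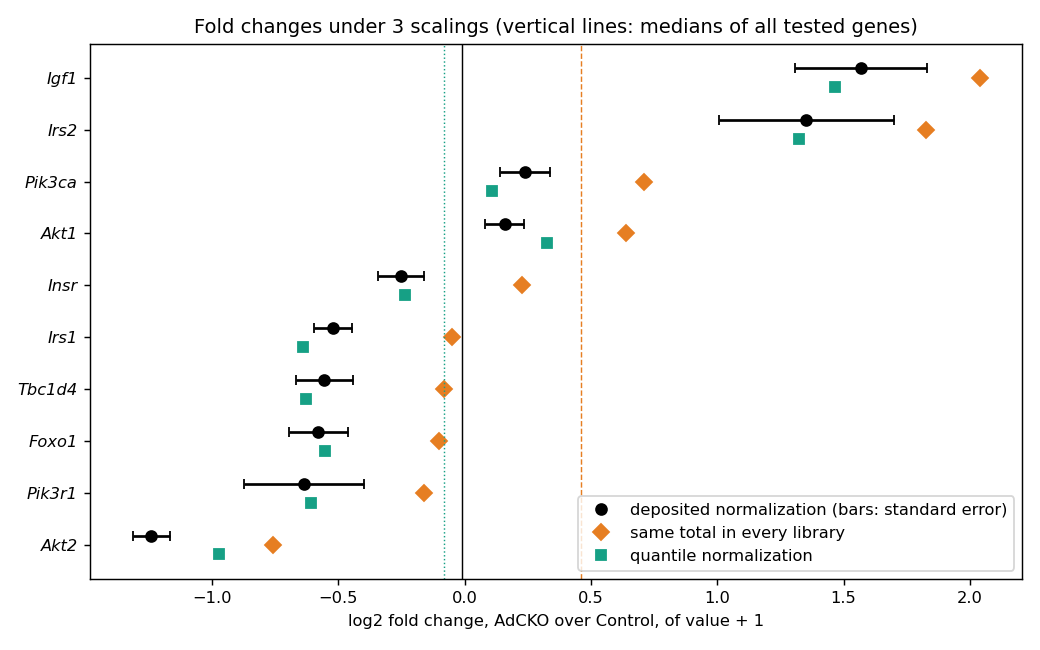
Log2 fold change (AdCKO over Control, of value + 1) of each of the 10 genes under 3 scalings. These are the deposited normalization (black, bars are SE), every library at the same total (orange) and quantile normalization (green). Vertical lines in the same colours mark the median of all tested genes under each scaling. Igf1 and Irs2 lie to the right and Akt2 to the left under all 3, and Insr changes side at the same total.

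The rest of the pathway was read from 7 lists with 100 genes, of which 98 were in the table and 92 were tested. In AdCKO 20 were higher, 35 were lower and 37 were not called. The share called, 59.8%, stood beside 53.6% of all tested genes, and the median log2 fold change was -0.04. With every library at the same total the counts became 54 higher and 13 lower, and under quantile normalization 23 and 30. At the same total Gab1, Igfals, Inpp5k, Pde3b, Phlpp1, Pik3r2, Sh2b1, Tbc1d7, Tsc2 and Txnip, all named below, were no longer called. Under quantile normalization Slc2a4 and Eif4ebp1 stayed called at smaller differences, -0.74 and -0.40.

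Among 9 genes of IGF ligands, receptors and binding proteins, 5 were higher and 1 was lower (8 and 0 at the same total, 4 and 1 under quantile normalization), with a median log2 fold change of 0.42. Binding proteins hold IGFs in the tissue fluid and blood and set how much reaches the receptor. Igfbp4 went from 213 ± 45.3 to 800 ± 158 (1.90, limma adjusted p = 7.03e-07), Igfbp6 from 36.9 ± 7.13 to 112 ± 38.9 (1.52, limma adjusted p = 8.87e-05, and 0.93 with only the 2 AdCKO libraries without muscle transcripts) and Igfbp5 from 254 ± 34.6 to 505 ± 31.6 (1.00, limma adjusted p = 1.39e-06). Igfbp7, the most abundant of the list, rose by 0.94 from a mean of 760 to 1453 (limma adjusted p = 1.10e-06), and the ligand Igf2 by 0.42 (limma adjusted p = 0.00843), a call lost in 7 of 10 omissions of a library, under quantile normalization (limma adjusted p = 0.0911) and without the 3 muscle-bearing libraries (limma adjusted p = 0.0641). Igfals, whose product holds IGFs in a stable complex in blood, fell by 0.77 (limma adjusted p = 0.00214). Fibroblast and preadipocyte markers moved with this group, and their part was not tested.

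Of 13 receptor adaptors 2 were higher and 5 were lower (8 and 3 at the same total, 5 and 5 under quantile normalization). Those that fell included Sh2b2, an adaptor that binds the receptor's kinase domain (913 ± 117 to 404 ± 79.6, -1.18, limma adjusted p = 5.98e-06), and the docking protein Gab1 (-0.53, limma adjusted p = 8.76e-05). Irs3, a docking protein of rodent fat, fell by 1.21 (149 ± 11.3 to 66.8 ± 22.4, limma adjusted p = 0.000105), and Sh2b1, the relative of Sh2b2, by 0.54 (limma adjusted p = 0.000687), though at the same total it was at -0.06 (limma adjusted p = 0.615) and without the 3 muscle-bearing libraries it was not called (limma adjusted p = 0.0200). The rises were Grb2, which links receptors to Ras (0.59, limma adjusted p = 1.51e-05), and Dok1, a docking protein abundant in blood cells (1.45, limma adjusted p = 1.44e-05). Cav1, the caveolar coat protein and the most abundant of the list, was at 0.27 (limma adjusted p = 0.0743). It was called higher at the same total (0.76, limma adjusted p = 0.000146) and under quantile normalization (0.88, limma adjusted p = 7.05e-05). Without the 3 muscle-bearing libraries it was at 0.47 and not called (limma adjusted p = 0.0244).

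Of 6 other kinase genes of the chain, 2 were higher and 1 was lower (5 and 0 at the same total, 1 and 1 under quantile normalization). Pik3cd, the catalytic subunit of leukocytes, went from 13.7 ± 6.55 to 38.4 ± 17.0 (1.44, limma adjusted p = 0.00103), while the macrophage markers rose in the same libraries. Its highest value, 67.5, was in AdCKO replicate 1, and the other AdCKO libraries stood at 26.5 to 39.2. That replicate had the highest lymphoid sum (179) and the lowest macrophage sum of the AdCKO libraries (5759). The part of these cell types was not tested. Pik3r2 fell by 0.28 (limma adjusted p = 0.00818), a call lost in 7 of 10 omissions of a library, and was at 0.20 with every library at the same total. With only the 2 AdCKO libraries without muscle transcripts, neither Pik3cd nor Pik3r2 was called.

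Of 15 genes of the complexes of the growth kinase mTOR and of their control, 0 were higher and 8 were lower, with a median of -0.45. At the same total 6 were higher and 3 lower, and under quantile normalization 1 and 8. In the main fit the share called, 53.3%, was near the 53.6% of all tested genes. The share called lower was 53.3%, against 28% of all tested genes. At an unadjusted limma p under 0.05, 1 was higher and 9 were lower. They held the kinase Mtor (284 ± 23.8 to 168 ± 17.4, -0.75, limma adjusted p = 7.43e-06) and its translation-repressing substrates Eif4ebp2 (-1.05, limma adjusted p = 2.16e-06) and Eif4ebp1 (2330 ± 417 to 1273 ± 128, -0.86, limma adjusted p = 5.28e-05). They also held Tbc1d7 and Tsc2, parts of the complex that restrains mTOR (-0.72 and -0.52, limma adjusted p of 8.81e-06 and 3.63e-05), neither of which was called at the same total. Rheb, the direct activator of mTOR, was the gene that was higher at an unadjusted p (0.25, limma adjusted p = 0.0222).

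The brakes on insulin signalling went both ways, with 6 of 15 higher and 6 lower (9 and 0 at the same total, 6 and 5 under quantile normalization). Trib3, a pseudokinase that binds Akt and is induced by cell stress, rose from 49.9 ± 5.81 to 520 ± 98.3, the largest difference of the 92 genes (3.34, SE 0.12, limma adjusted p = 2.09e-09). Grb10, which binds and inhibits the receptor, went from 38.8 ± 3.25 to 94.1 ± 10.3 (1.25, limma adjusted p = 1.80e-07), and Inpp5d, a lipid phosphatase of blood cells, from 11.9 ± 3.67 to 37.7 ± 8.85 (1.60, limma adjusted p = 2.01e-05). The phosphatases Phlpp1, which acts on Akt, and Inpp5k fell by 0.72 and 0.45 (limma adjusted p of 4.49e-05 and 0.000150), and Inpp5k was at 0.03 at the same total.

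Of 22 further Akt substrates and genes of GLUT4 traffic, 2 were higher and 11 were lower, with a median of -0.23 (12 higher and 5 lower at the same total, 3 and 8 under quantile normalization). Slc2a4, which encodes GLUT4, fell from 2078 ± 332 to 936 ± 140 (-1.15, limma adjusted p = 4.86e-06). Gys1, the glycogen synthase outside the liver, fell by 0.98 from 1004 ± 47.4 to 508 ± 43.4 (limma adjusted p = 2.68e-07), Sort1, which builds GLUT4 vesicles, by 0.87 (limma adjusted p = 2.15e-06), Rhoq by 0.72 (limma adjusted p = 3.56e-06) and Pde3b, through which insulin restrains lipolysis, by 0.76 (limma adjusted p = 6.15e-06). The rises were Tbc1d1, the close relative of Tbc1d4 (22.4 ± 3.16 to 37.99 ± 2.86, 0.75, limma adjusted p = 3.50e-05), and Stxbp3a, a partner of the fusion machinery (0.58, limma adjusted p = 0.000292). Tbc1d4 was the higher of this pair in both group means. Among the pathway genes named, exons annotated on the other strand overlap Igf2, Igfbp7, Tsc2, Gys1, Sort1, Rhoq, Gadd45a and Txnip, so their values carry the same doubt as those of Irs1 and Irs2.

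Of 12 genes known as FOXO targets 3 were higher and 3 were lower, shares near those of all tested genes, with a median of 0.03 (6 and 2 at the same total with a median of 0.51, 3 and 2 under quantile normalization). Gadd45a and Cdkn1a, which stress pathways also induce, went from 43.3 ± 8.14 to 345 ± 80.0 (2.95, limma adjusted p = 5.31e-08) and from 118 ± 22.8 to 387 ± 36.2 (1.72, limma adjusted p = 2.31e-07), and Cited2 rose by 0.91 (limma adjusted p = 0.000143). Klf15 and Bnip3 fell by 1.56 and 1.21 (limma adjusted p of 1.75e-05 and 4.52e-06), and Txnip, a curb on glucose uptake, was at -0.49 (limma adjusted p = 0.00120). Txnip lost its call at the same total (-0.01, limma adjusted p = 0.931), under quantile normalization, where its sign turned (0.12, limma adjusted p = 0.361), and without the 3 muscle-bearing libraries (limma adjusted p = 0.0244). Pdk4, a kinase that curbs the use of pyruvate in mitochondria and the most abundant of the list, was at 4484 ± 709 and 4126 ± 1178 (-0.15, limma adjusted p = 0.478). Its sign turned at the same total, under quantile normalization and without the 3 muscle-bearing libraries (0.26 in the last, limma adjusted p = 0.197).

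**Figure D5:**
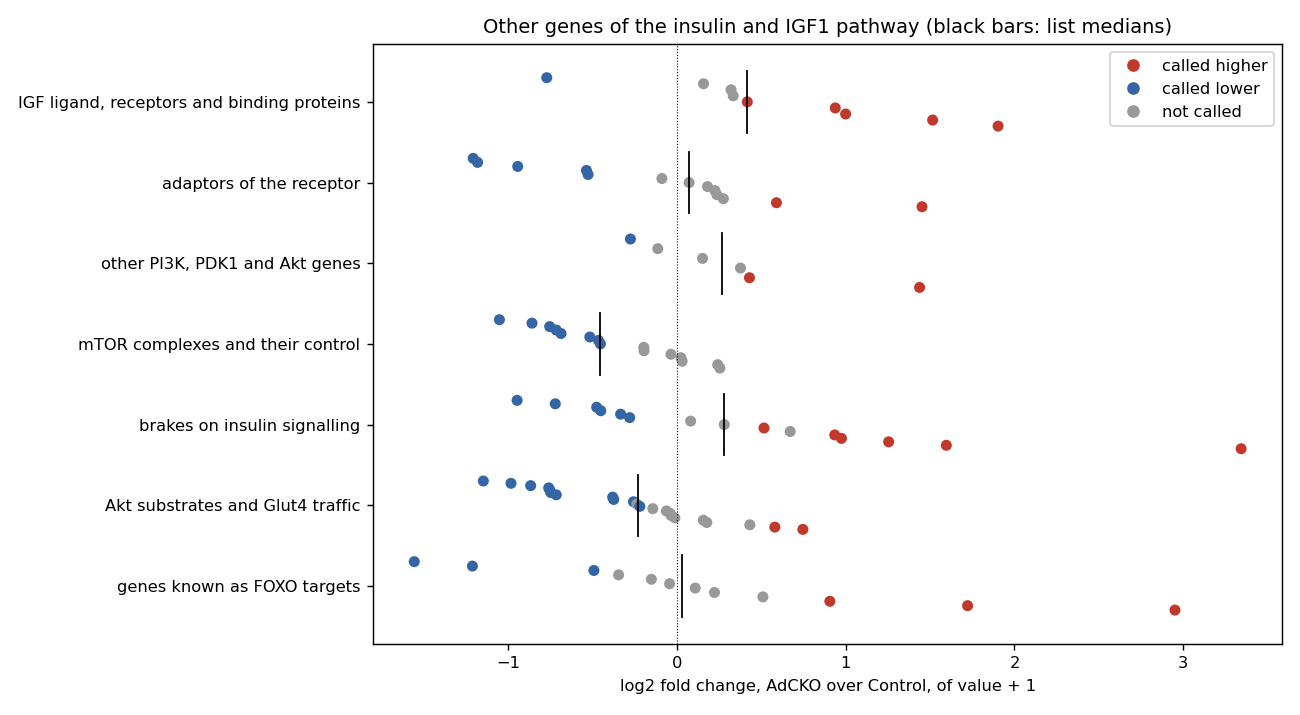
Log2 fold change (AdCKO over Control, of value + 1) of each of the 92 tested genes in 7 lists of the insulin and IGF1 pathway, with red for genes called higher, blue for lower and grey for not called; black bars are list medians. The point farthest right is Trib3 at 3.34, and the mTOR list has 8 genes called lower and 0 called higher. That is 53.3% of the list called, beside 53.6% of all tested genes.

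Of all tested genes, those whose profile over the 10 libraries was nearest to that of Igf1 (Euclidean distance between centred log2 profiles) were Cd55, Entpd2 and Actg1, at distances of 0.722, 0.740 and 0.771 against a median of 2.93 for all genes. Actg1, a cytoplasmic actin, has near-identical relatives that could share its reads. Nearest to Akt2 were Ndufb5, a subunit of respiratory complex I, Ppp2r5a, a regulatory subunit of a protein phosphatase, and 0610011F06Rik, at 0.190, 0.210 and 0.215 against a median of 2.02. Ndufb5 went from 2131 ± 110 to 894 ± 79.9, or 42.0% of the Control mean, beside 42.3% for Akt2. All profiles come from the same 10 libraries, so the group difference weighs in each distance.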

How the data were processed

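Brown fat RNA of 5 Control and 5 AdCKO mice was analysed, grouped by the sample labels. The authors mapped reads to mm9 with STAR, made HOMER tag directories, used iRNA-seq to count reads in exons, and used DESeq2 to normalize between libraries (versions and strand setting not given in the sources used here). The deposited values are a signal, normalized reads per kb of counted exon, for 15075 genes with 1 transcript each, beside the counted bases. The authors' fold changes, adjusted p-values and gene lists hold their own comparison and were not used. All columns of sample values were mapped to a sample.

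Counts were not recoverable: at most 23.6% of low values lay within 0.1 of a whole step, where chance gives 20%. Depth and counting error are thus unknown, and DESeq2 could not be run. Genes with a mean of at least 10 in either group (11244) were tested on log2(value + 1) with limma 3.58.1 (lmFit, eBayes with intensity trend, two-sided) in R 4.3.3, with Benjamini-Hochberg adjustment over all of them and a threshold of 0.01. The fit was checked on simulated data. Ratios within a library were compared by exact two-sided permutation tests (scipy 1.17.1), adjusted over the 4 ratios, at 0.05. Replicates are different mice. Figures were drawn with matplotlib 3.10.9.

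The members, lists and tests were chosen with earlier results of these data known. Named from each list are up to 5 called genes with the smallest p, up to 3 called against the list's majority, and the most abundant. Also named are Crls1, Igf1r and the 3 genes nearest in profile to Igf1 and to Akt2. Irs3, Igf2, Sh2b1 and Txnip were named after their values were seen. Results for 2 further genes of the lists are not reported here. Gene coordinates are mm9, promoters RefSeq on GRCm38.p6. Alternatives were other pseudocounts (0.1 and 10), no filter on low values, 2 other scalings, limma without the trend or with array weights, a replicate block, a muscle marker covariate, a threshold of 0.05 and the omission of each library. The fit without the 3 AdCKO libraries that held muscle transcripts, and the ratios under the 2 other scalings, were added after seeing the data.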

Additional observations from a re-analysis of the deposited data

Results flagged for a closer look

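Among 114 groups of 5 libraries (each named gene or ratio in each group), 6 held a library whose gap to its nearest neighbour was more than 0.710 of the group's range, and chance alone gives about 1 such group in 20. Among the members this was Foxo1 in Control replicate 1, at 207 with the next library at 139. Without that library Foxo1 stayed lower in AdCKO, by 0.45 on the log2 scale (-0.45, limma adjusted p = 8.43e-05). The ratio of Insr over Igf1r was 9.80 in Control replicate 4 against 9.16 in the next library. In the pathway lists, Cited2 was 63.6 in Control replicate 3 (next 47.4) and Stxbp3a 73.4 in Control replicate 1 (next 56.0). In AdCKO replicate 5, Sh2b2 was 544 (next 393) and 0610011F06Rik 87.2 (next 70.4).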

How the results depend on the processing

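Igf1 and Akt2 kept their direction and call in all 21 alternatives, with log2 fold changes of 1.29 to 2.04 and -1.29 to -0.76. With every library at the same total, Insr turned from -0.25 to 0.23, the members called became 4 higher and 1 lower in place of 2 and 4, and the pathway genes called became 54 higher and 13 lower in place of 20 and 35. That scaling moves the median of all genes by 0.47. Leaving out each library in turn gave 1 to 2 members called higher and 4 lower, with Irs2 the gene that was lost, and 19 to 21 pathway genes higher and 31 to 34 lower. Over all tested genes 6031 were called, 5524 to 5953 with a library left out and 4274 to 7909 under the other alternatives. The 4 ratios were run under 16 alternatives and kept their direction in each. Under quantile normalization Insr over Igf1r (-0.19, exact permutation adjusted p = 0.151) and Pik3r1 over Pik3ca (-0.71, adjusted p = 0.0847) no longer passed, and in the other alternatives all 4 stayed past the threshold wherever the design could reach it. 5 pairs can reach no p under 0.0625 and 5 against 2 none under 0.095, by exact permutation. Same-numbered Control and AdCKO libraries did not deviate together (correlations of -0.27 to 0.10), so the numbers were not taken as pairs. With the replicate block, 5430 genes were called and Pik3r1 was called lower (-0.64, limma adjusted p = 0.00176), and the members called were 2 higher and 5 lower. No depth can be given for these values, so no floor or counting interval is set beside them. No other threshold was run for the ratios, since theirs was already 0.05.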
